A study of Arabidopsis thaliana with 72 samples.

Results

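The data described here are the response of fmo1-1 seedlings to N-hydroxy-pipecolic acid (NHP) after 3 h. They are the 3 libraries of fmo1-1 treated with NHP and the 3 libraries of fmo1-1 given mock medium at that time, 6 of the 72 libraries of the series, and all 21042 of the 27655 genes in the count table that passed a filter on low counts. The series holds RNA-seq of whole Arabidopsis thaliana seedlings of 3 genotypes, the wild type Col-0 and the mutants sid2-2 and fmo1-1 in the same background, each sampled 4 times from 15 min to 6 h after mock or NHP with 3 libraries per group. Seedlings grew in liquid medium in wells, were treated 10 days after germination with NHP at a final concentration of 0.5 mM or with medium alone, and the pooled seedlings of 1 well made 1 library. All groups used here, controls included, therefore had a change of medium and a short rest before treatment. fmo1-1 is a mutant of FLAVIN-DEPENDENT MONOOXYGENASE 1, and sid2-2 is a mutant of ISOCHORISMATE SYNTHASE 1 (ICS1). Each mutant is represented by 1 allele.

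NHP is a signal of systemic acquired resistance, the state in which leaves far from a first infection become more resistant. Plants make it from lysine: ALD1 removes the amino group, SARD4 helps to form pipecolic acid, and FMO1 adds the hydroxyl group. A plant without FMO1 thus cannot make NHP but can meet NHP that is supplied from outside. Salicylic acid (SA), made from isochorismate by way of ICS1, acts beside NHP, is perceived by NPR1, NPR3 and NPR4, and drives the transcription of WRKY factors and defence proteins.

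FMO1 checked the labels. In fmo1-1 at 3 h its level was 0.299, 0.304 and 0.363 CPM in the mock libraries and 0.206, 0.259 and 0.145 CPM in the NHP libraries. CPM are counts scaled to the library's total, adjusted by its TMM scaling factor. Mock Col-0 had 1.78, 1.98 and 2.39 CPM, so all fmo1-1 libraries lay below all mock Col-0 libraries. The difference in mock seedlings was a log2(FC) of -2.40 ± 0.33 (SE; edgeR adjusted p = 5.02e-06), and NHP against mock within fmo1-1 was not called for FMO1 (log2(FC) -0.50 ± 0.43, adjusted p = 0.664). With the replicate number as a block the label check gave a log2(FC) of -2.34 with an adjusted p of 0.0579. Assigned reads per library ranged from 21076309 to 26233376 in the 6 libraries and from 19618319 to 28382977 in all 72. The markers of the tissues in a seedling were present: the summed level of 12 genes of green shoot tissue ranged from 35880 to 41730 CPM in mock and from 36550 to 38120 CPM in NHP libraries, that of 10 genes of root endodermis and root cap from 97.1 to 108 and from 98.5 to 104 CPM, and 0 of these 22 genes were called.

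NHP changed 832 of the 21042 genes in fmo1-1 at 3 h (3.95% of genes tested, the background for each count below). A gene was called where the quasi-likelihood test of edgeR gave a p below 0.05 after Benjamini-Hochberg adjustment across all genes. Of these, 455 were higher with NHP (2.16%) and 377 were lower (1.79%). Rises reached further than falls. Past a log2(FC) of 1, 93 genes were up (0.442%, median 1.55), and past -1, 55 genes were down (0.261%, median -1.15). A log2(FC) beyond 2 was found for 27 of the genes that rose and for 0 of those that fell. About as many small changes stood on both sides, with 233 rises and 189 falls of less than 0.5 on the log2 scale. The 3 NHP libraries did not overlap the 3 mock libraries for 91 of the 93 genes up and for 52 of the 55 genes down. Over all genes tested, 9.75% lay fully above mock and 9.49% fully below. The count of calls fell to 461 without mock replicate 1, to 551 without NHP replicate 2 and to 521 without NHP replicate 3. Calls held without each of the 6 libraries in turn for 63 of the 93 genes up and 36 of the 55 genes down.

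Outputs of SA and systemic resistance were among the largest rises. Of a list of 24 such genes, all measured, 13 rose and 0 fell (54.2% called, against 3.95% of all genes). The median log2(FC) was 1.82 against -0.003 for all genes. Several members, such as ARD3, SCPL14, LURP1 and PCC1, were grouped by the paper for a late rise with NHP in Col-0 of this series. The share called and the median thus follow in part from how the list was chosen. ARD3, an acireductone dioxygenase of the methionine salvage family, was at 0.256, 0 and 0.0907 CPM in mock and at 7.37, 5.14 and 7.61 CPM in NHP libraries. The 2 groups were far apart, and its log2(FC) of 5.07 ± 0.38 was the largest among the genes named by the rule given with the methods (adjusted p = 1.14e-15). AT1G19960, a gene without a name in the reference, went from 0.896, 0.521 and 0.363 CPM to 11.8, 10.8 and 12.9 CPM (log2(FC) 4.13 ± 0.22, adjusted p = 1.98e-23). NAC004, a NAC transcription factor, went from 0.0853, 0.174 and 0.0453 CPM to 2.43, 2.48 and 3.33 CPM (log2(FC) 3.92 ± 0.35, adjusted p = 2.05e-13). ARD3 and NAC004 were close to absent in mock seedlings, and AT1G19960 was low but detected. Each of these 3 genes was alike in the 3 NHP libraries.

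Other members of the list varied more among the NHP libraries. PCC1, named for its control by pathogens and the circadian clock, had 1.44, 0.887 and 3.73 CPM with NHP and 0.0853, 0 and 0.136 CPM in mock (log2(FC) 3.74 ± 0.64, adjusted p = 8.11e-05). LURP1, which basal defence against downy mildew requires, had 7.41, 8.06 and 13.2 CPM with NHP and 0.171, 1.13 and 1.09 CPM in mock (log2(FC) 3.47 ± 0.53, adjusted p = 9.55e-06). NHP replicate 3 was the highest library for both genes, although no NHP library overlapped a mock library. The same library was highest for LLP1, a lectin-like protein of systemic resistance, with 44.1 CPM, while the other NHP libraries had no more than 20 CPM and 9.89, 5.47 and 10.7 CPM in mock. Its rise (log2(FC) 1.63 ± 0.34, adjusted p = 0.00116) was no longer called without NHP replicate 3. ACD6, an ankyrin protein of the plasma membrane that promotes defence, went from 6.10, 6.90 and 5.98 CPM to 20.2, 25.1 and 32.5 CPM (log2(FC) 2.02 ± 0.24, adjusted p = 1.54e-08). BDA1, another ankyrin protein of immunity, went from 0.0426, 0.651 and 0 CPM to 2.14, 1.89 and 3.30 CPM (log2(FC) 2.99 ± 0.54, adjusted p = 0.000157). BDA1 overlaps a gene on the opposite strand, and the sources used here do not say whether strand was used in counting, so reads of such pairs cannot be told apart. Other called genes named in the text with such an overlap are LLP1, SARD1, ADR1-L1, UGT74F2, WRKY53, WAK2, SOBIR1, UGT73B3, EXPA7, EXPA18, AHA7, LUX and COL2. AT2G41090, TPS13, cpHsc70-2, AT2G44760 and BBX8, named further below, have such an overlap too. SARD4 and AHA7 overlap another gene on the same strand.

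Low genes of the list moved from nothing detected to a few reads. SCPL14, a serine carboxypeptidase-like gene, had 0 counts in each mock library and 20, 15 and 33 counts with NHP. Against a floor of 3 counts over the mock group it was at least 19.7-fold higher. AT1G15610 had 0 counts in each mock library and 14, 8 and 13 counts with NHP, at least 10.2-fold higher by the same floor. Set to these bounds, the 2 genes left the list's median at 1.82. AT4G19750 reached 1.85, 1.22 and 1.48 CPM from 0.0853, 0.0868 and 0 CPM. Its neighbour AT4G19760 rose too (log2(FC) 3.16 ± 0.47), and reads that the 2 could share make each value uncertain. CRRSP57, which encodes a cysteine-rich repeat secretory protein, went from 0.469, 0.608 and 0.363 CPM to 5.72, 5.69 and 6.45 CPM (log2(FC) 3.41 ± 0.26, adjusted p = 5.10e-16). It stands beside AT5G41290 (log2(FC) 2.98 ± 0.35) and AT5G41300 (1.395 ± 0.28), which rose as well and carry the same caution.

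The classical markers of SA were among the 11 members that were not called. PR1 had 2.56, 1.87 and 1.68 CPM in mock and 2.02, 1.22 and 9.38 CPM with NHP. Only NHP replicate 3 was above the mock libraries (log2(FC) 1.03 ± 0.63, adjusted p = 0.482), and without that replicate the value was -0.33. PR2 showed the same form, with 2.22, 1.39 and 1.68 CPM in mock and 1.89, 1.07 and 4.93 CPM with NHP (log2(FC) 0.56 ± 0.54, adjusted p = 0.705). PR5 had 21.0, 17.4 and 16.8 CPM in mock and 19.4, 14.0 and 16.6 CPM with NHP (log2(FC) -0.15 ± 0.15, adjusted p = 0.726), and its groups overlapped.

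**Figure D1:**
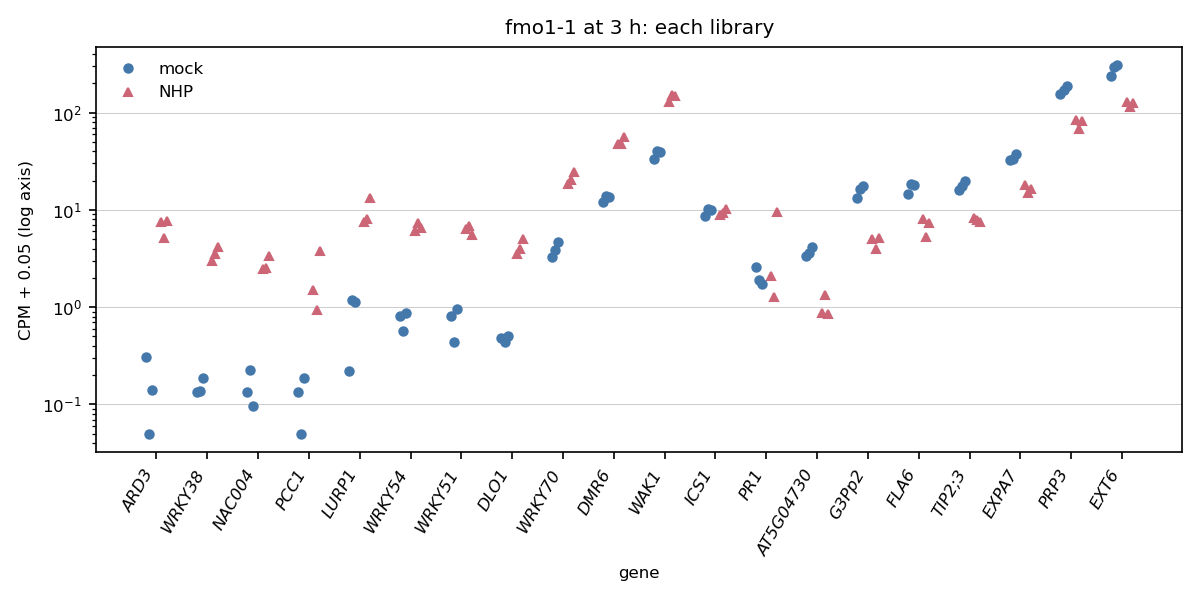
Level of 20 genes in each of the 6 fmo1-1 libraries at 3 h, as CPM plus 0.05 on a log axis. Circles are mock and triangles are NHP libraries. The groups stand apart for the genes on the left and right, and overlap for ICS1 and for PR1, where 1 NHP library at 9.38 CPM lies above the rest.

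WRKY factors bind W-box elements and act both as activators and as repressors of defence genes. Of 21 in the list, 18 were measured, 7 rose and 0 fell (38.9% called), with a median log2(FC) of 0.35. The paper had grouped WRKY38, WRKY51, WRKY54, WRKY59, WRKY62 and WRKY70 for an early and lasting rise with NHP in Col-0 of this series. The share called thus follows in part from how the list was chosen. WRKY38, a member of group III that is induced by SA, went from 0.0853, 0.0868 and 0.136 CPM to 2.92, 3.44 and 4.09 CPM (log2(FC) 4.25 ± 0.38, adjusted p = 6.44e-13). WRKY62, its closest relative, went from 0.0426, 0.174 and 0.0907 CPM to 1.73, 2.00 and 1.48 CPM (log2(FC) 3.28 ± 0.38, adjusted p = 1.39e-09). WRKY54, also of group III, had 0.768, 0.521 and 0.816 CPM in mock and 6.01, 7.21 and 6.52 CPM with NHP (log2(FC) 3.09 ± 0.20, adjusted p = 1.05e-19). In these 3 genes the NHP libraries lay close together and at least several times above the highest mock library. WRKY70, which acts redundantly with WRKY54, was the most abundant of the factors that rose strongly. It had 3.20, 3.82 and 4.63 CPM in mock and 18.5, 20.4 and 24.7 CPM with NHP (log2(FC) 2.43 ± 0.19, adjusted p = 4.22e-14). WRKY51, with WRKY50 a link between SA and the repression of jasmonate signalling, rose by 3.03 ± 0.27, and its relative WRKY59 by 2.67 ± 0.41 on the log2 scale. WRKY53 rose by 0.39 ± 0.10 (adjusted p = 0.0179), a call that 4 of the 6 leave-one-out fits lost.

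Enzymes that modify SA were among the clear rises. Of 6 measured genes of SA hydroxylation, glucosylation and methylation, 3 rose and 0 fell. DLO1, the SA 3-hydroxylase, went from 0.426, 0.391 and 0.453 CPM to 3.497, 3.918 and 4.963 CPM (log2(FC) 3.05 ± 0.27, adjusted p = 2.43e-13). DMR6, the SA 5-hydroxylase and a susceptibility factor for downy mildew, went from 11.9, 13.9 and 13.5 CPM to 46.9, 47.4 and 56.3 CPM (log2(FC) 1.93 ± 0.11, adjusted p = 2.21e-20). UGT74F2, an SA glucosyltransferase, had 118, 119 and 123 CPM in mock and 168, 167 and 186 CPM with NHP (log2(FC) 0.53 ± 0.07, adjusted p = 1.33e-07). All NHP libraries lay above all mock libraries for each of the 3.

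UGT76B1, the glucosyltransferase of NHP, was 1 of the 2 genes that rose among 4 genes of NHP synthesis and glucosylation. It had 28.2, 31.2 and 27.4 CPM in mock and 57.1, 60.5 and 68.1 CPM with NHP (log2(FC) 1.095 ± 0.099, adjusted p = 2.20e-12). SARD4 rose from 22.6, 19.1 and 21.0 CPM to 25.3, 26.2 and 29.6 CPM (log2(FC) 0.37 ± 0.07, adjusted p = 0.000404). ALD1 stayed under 0.7 CPM in every library, with a log2(FC) of 1.17 ± 0.45 that was not called (adjusted p = 0.153). FMO1, the mutated gene, was the fourth.

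Of 14 genes of SA synthesis and its regulators, 4 rose and 0 fell (median 0.17). SARD1, a transcription factor that activates ICS1 and FMO1, went from 3.07, 4.56 and 4.13 CPM to 11.1, 9.76 and 11.3 CPM (log2(FC) 1.44 ± 0.18, adjusted p = 1.21e-08). ICS1 itself had 8.66, 10.2 and 9.93 CPM in mock and 8.85, 9.28 and 10.0 CPM with NHP. The groups overlapped in full, and the log2(FC) was -0.03 ± 0.12 (adjusted p = 0.958). NDR1, needed for resistance through several NLR receptors, rose by 0.67 ± 0.13 (adjusted p = 0.000350). The helper NLR genes ADR1 and ADR1-L1 rose by 0.27 ± 0.07 and 0.31 ± 0.09, and each of these 2 calls was lost in 3 of the 6 leave-one-out fits. EDS1 (log2(FC) 0.11 ± 0.07) and PAD4 (0.13 ± 0.08), the lipase-like partners of basal immunity, were not called.

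SA receptors and the proteins that bind NPR1 showed 5 rises and 0 falls among 14 genes (35.7% called, median 0.12). NPR3 went from 13.6, 15.5 and 15.7 CPM to 30.1, 29.1 and 31.7 CPM (log2(FC) 1.01 ± 0.09, adjusted p = 4.22e-14). NPR4 went from 11.3, 11.4 and 11.5 CPM to 15.0, 18.2 and 19.2 CPM (log2(FC) 0.61 ± 0.08, adjusted p = 1.65e-07). Both encode SA receptors that act as co-repressors, and their groups did not overlap. NPR1, the co-activator, had a log2(FC) of 0.17 ± 0.06 that was not called (adjusted p = 0.119). NIMIN-2, which binds NPR1, rose from 2.345, 1.822 and 2.176 CPM to 6.83, 5.77 and 7.36 CPM (log2(FC) 1.61 ± 0.17, adjusted p = 8.03e-11). GRX480, a glutaredoxin that interacts with TGA factors, rose from 0.426, 0.391 and 0.861 CPM to 1.52, 2.11 and 2.65 CPM (log2(FC) 1.77 ± 0.32, adjusted p = 9.84e-05). NIMIN-1 rose by 1.85 ± 0.50 (adjusted p = 0.0167) from under 0.14 to between 0.370 and 0.702 CPM, and 4 of the 6 leave-one-out fits lost that call.

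Receptors at the cell surface rose in part. Among 20 measured wall-associated and cysteine-rich receptor kinases, 5 rose and 0 fell (median 0.48). WAK1, a kinase that binds pectin in the wall, went from 33.2, 39.8 and 39.5 CPM to 130, 150 and 147 CPM (log2(FC) 1.92 ± 0.16, adjusted p = 1.06e-12). WAK2 rose by 0.42 ± 0.06, CRK9 by 0.94 ± 0.12, CRK14 by 0.70 ± 0.18 and CRK5 by 0.37 ± 0.10. Of 14 pattern recognition receptors and partners, 2 rose: RLK7, a receptor of PIP peptides, by 0.33 ± 0.07 and SOBIR1, the partner of receptor-like proteins, by 0.39 ± 0.11. The call of SOBIR1 was lost in 5 of the 6 leave-one-out fits. CPK22, a calcium-dependent protein kinase outside these lists, was among the largest rises, from 0.299, 0.260 and 0.272 CPM to 2.47, 1.89 and 2.36 CPM (log2(FC) 2.68 ± 0.36, adjusted p = 7.65e-08). AT3G22235, which lies near PCC1 on chromosome 3, went from 1.19, 1.74 and 1.77 CPM to 8.969, 6.505 and 21.41 CPM, and NHP replicate 3 was again the highest (log2(FC) 2.91 ± 0.45, adjusted p = 8.14e-06).

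Promoters of genes that rose are shown because TGACG, the core of the sites that TGA factors bind, recurred in them. TGA factors are the bZIP proteins through which NPR1 reaches DNA. Of the 15 rises named by the rule, 8 held TGACG on either strand in the 250 bases before the annotated gene start. All 8 held it more than once. Among the 92 promoters of genes up, 26.1% held TGACG and 15.2% held it more than once, against 19.1% and 3.42% of the 20933 promoters of genes tested. The palindrome TGACGTCA, which counts as 2 matches of TGACG, stood in 5 of the 15 promoters, in 8.70% of those of genes up, in 0 of 55 of genes down and in 0.516% of all. W-boxes (TTGACC or TTGACT on either strand) stood in 37.0% of promoters of genes up, 32.7% of genes down and 28.5% of all. A W-box overlapped a TGACG in 0.0955% of all promoters. The root hair list described below held TGACG in 26.9% of its 26 promoters, and in 15.4% more than once. These shares describe letters in a window and carry no test. The sequences below are from the RefSeq TAIR10.1 genome and annotation, 5′ to 3′ toward the gene, with each TGACG or its reverse complement in capitals.
ARD3 (chr2:11233389-11233638, minus strand): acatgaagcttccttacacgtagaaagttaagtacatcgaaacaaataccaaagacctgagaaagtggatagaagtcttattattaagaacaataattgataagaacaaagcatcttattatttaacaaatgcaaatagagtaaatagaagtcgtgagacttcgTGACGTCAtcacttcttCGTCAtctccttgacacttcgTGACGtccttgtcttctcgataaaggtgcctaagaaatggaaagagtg
NAC004 (chr1:436923-437172, minus strand): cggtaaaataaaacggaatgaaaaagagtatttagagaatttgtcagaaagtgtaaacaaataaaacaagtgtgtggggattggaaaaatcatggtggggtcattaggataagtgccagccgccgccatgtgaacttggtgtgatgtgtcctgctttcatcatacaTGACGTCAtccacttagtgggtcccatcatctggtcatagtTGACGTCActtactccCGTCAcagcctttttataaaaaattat
PCC1 (chr3:7846834-7847083, minus strand): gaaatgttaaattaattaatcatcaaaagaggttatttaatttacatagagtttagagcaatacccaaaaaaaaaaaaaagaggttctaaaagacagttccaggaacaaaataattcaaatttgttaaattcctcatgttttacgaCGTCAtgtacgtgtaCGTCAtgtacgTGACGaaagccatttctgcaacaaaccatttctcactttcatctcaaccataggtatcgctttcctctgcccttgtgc
DLO1 (chr4:6490767-6491016, plus strand): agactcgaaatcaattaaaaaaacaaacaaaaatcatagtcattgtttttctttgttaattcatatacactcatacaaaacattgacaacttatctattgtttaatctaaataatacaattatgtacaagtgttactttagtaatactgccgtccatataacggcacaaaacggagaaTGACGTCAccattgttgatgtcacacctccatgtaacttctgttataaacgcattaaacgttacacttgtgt
WRKY51 (chr5:25907997-25908246, plus strand): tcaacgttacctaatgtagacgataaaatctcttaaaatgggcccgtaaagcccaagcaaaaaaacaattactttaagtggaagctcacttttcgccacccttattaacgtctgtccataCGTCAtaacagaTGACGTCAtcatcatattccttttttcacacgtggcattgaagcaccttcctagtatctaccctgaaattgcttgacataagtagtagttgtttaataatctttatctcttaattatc
WRKY70 (chr3:20910624-20910873, minus strand): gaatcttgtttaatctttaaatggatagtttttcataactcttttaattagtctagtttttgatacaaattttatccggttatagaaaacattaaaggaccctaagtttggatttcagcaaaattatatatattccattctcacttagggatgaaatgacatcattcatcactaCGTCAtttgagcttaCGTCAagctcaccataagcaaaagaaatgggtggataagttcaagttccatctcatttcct

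In ARD3 the matches began 86, 83, 69 and 48 bases before the gene start, and in NAC004 84, 81, 43, 40 and 27 bases before it. PCC1 held 3 single matches between 104 and 78 bases before the start. DLO1 and WRKY51 each held 1 palindrome, and WRKY70 held 2 single matches, 76 and 61 bases before the start. The 15 falls named by the rule held 3 matches in all, in 3 promoters, and no palindrome.

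Lists of other defence pathways held few calls, at shares above the 3.95% of all genes. Of 31 genes of jasmonate synthesis, signalling and the wound response, 3 rose and 0 fell (9.68% called, median 0.25), and 29 had a log2(FC) above 0. AOC2, an allene oxide cyclase of jasmonate synthesis, rose from 115, 107 and 134 CPM to 184, 167 and 184 CPM (log2(FC) 0.59 ± 0.13, adjusted p = 0.00295). The repressor genes JAZ1 and JAZ2 rose by 0.55 ± 0.13 and 0.28 ± 0.08, and the call of JAZ2 was lost in 4 of the 6 leave-one-out fits. Of 30 glutathione transferases, glycosyltransferases and alternative oxidases, 2 rose and 0 fell (6.67% called, median 0.204), and 26 had a log2(FC) above 0. GSTU22 rose by 1.02 ± 0.25 and UGT73B3 by 0.58 ± 0.14, each with a call that 1 left-out library ended. Of 15 genes of indole glucosinolate and camalexin synthesis, CYP83B1 and UGT74B1 rose by 0.44 ± 0.11 and 0.27 ± 0.08, and the regulator MYB34 fell by 0.30 on the log2 scale (SE 0.09). Each of these 3 calls was lost in at least 4 of the 6 leave-one-out fits.

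Genes of protein folding in the endoplasmic reticulum rose by small amounts. Of 14, 6 rose and 0 fell (42.9% called, median 0.15), all by less than 0.35 on the log2 scale. BIP1, the luminal Hsp70, went from 586, 587 and 568 CPM to 675, 659 and 712 CPM (log2(FC) 0.23 ± 0.05, adjusted p = 0.00377). CRT3, a calreticulin that the immune receptor EFR needs, rose by 0.21 ± 0.05, and HSFB1, a heat shock factor, by 0.33 ± 0.08. The groups of these 3 genes did not overlap, but the list's count ranged from 1 to 5 over the leave-one-out fits.

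**Figure D2:**
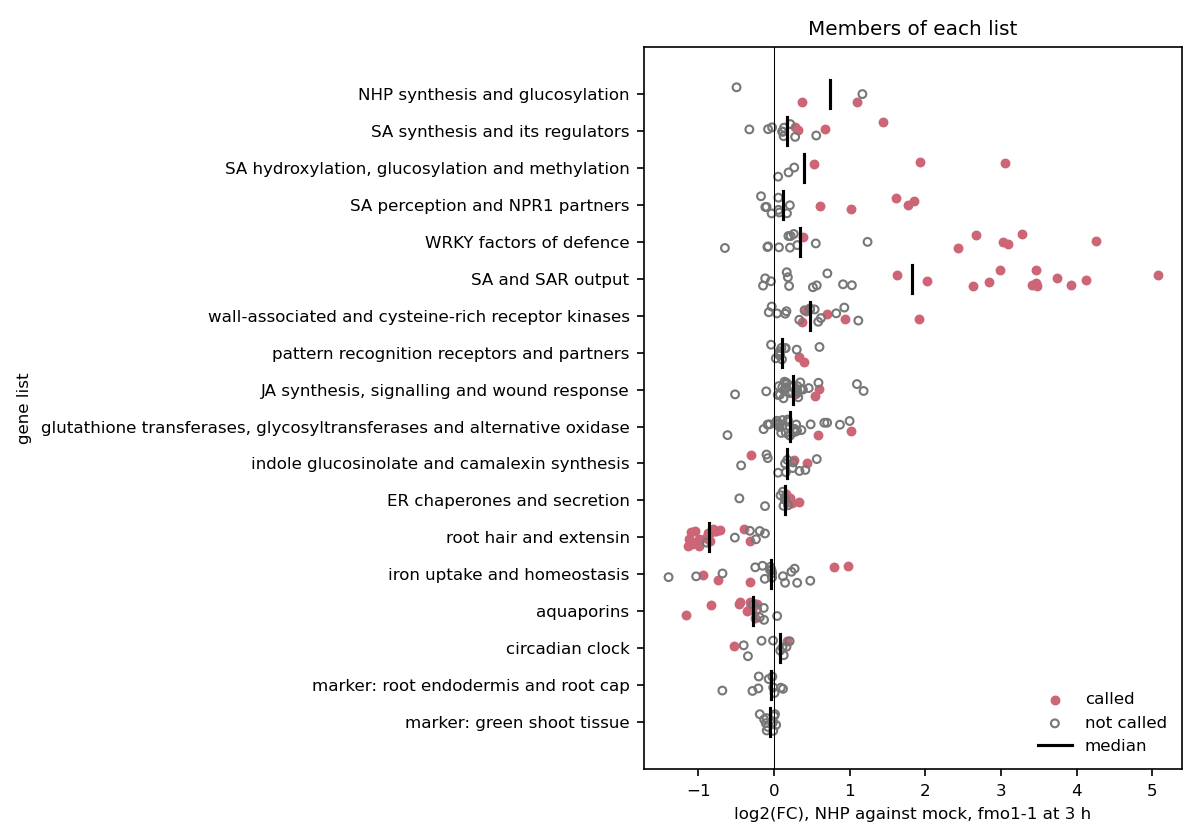
log2(FC) of NHP against mock in fmo1-1 at 3 h for each measured member of the 18 gene lists. Filled points were called, open points were not, and the black bar is the median of the list. SA and SAR output reached 5.07, and the root hair list lay below 0 throughout, with a median of -0.86.

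The falls gathered in genes of root hairs. Root hairs grow at their tips by the action of expansins, extensins, xyloglucan transferases and wall peroxidases, under the bHLH factors RHD6, RSL2 and RSL4. Of 26 such genes, all measured, 20 fell and 0 rose (76.9% called, against 3.95% of all genes), and all 26 had a log2(FC) below 0 (median -0.86). PRP3, a proline-rich wall protein, went from 155, 170 and 188 CPM to 83.4, 68.2 and 81.3 CPM (log2(FC) -1.14 ± 0.12, adjusted p = 4.44e-10). EXPA7, an expansin made in root hair cells, went from 32.7, 33.5 and 37.5 CPM to 17.8, 14.8 and 16.3 CPM (log2(FC) -1.08 ± 0.11, adjusted p = 2.47e-10). EXPA18 went from 35.2, 34.2 and 36.3 CPM to 19.2, 15.5 and 17.8 CPM (log2(FC) -1.01 ± 0.11, adjusted p = 1.25e-09). These wall genes fell to about 50% of mock, with close replicates and no overlap. In whole seedlings, fewer cells of a type and less RNA per cell cannot be told apart.

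Other members followed in size. XTH14, a xyloglucan transferase of root hairs, went from 110, 122 and 127 CPM to between 50.8 and 63.0 CPM (log2(FC) -1.05 ± 0.11). LRX1, an extensin-like protein needed for hair shape, fell by 0.90 (SE 0.11), and COW1, a phosphatidylinositol transfer protein of tip growth, fell by 0.84 (SE 0.11) on the log2 scale. LRL3, a bHLH factor of hair growth, fell by 0.78 (SE 0.15). The 6 members not called were RHD6, RSL2, RSL4, RHD2, PIP5K3 and IRE. RHD2, the NADPH oxidase of the hair tip, had a log2(FC) of -0.19 ± 0.10, RSL4 one of -0.12 ± 0.16 and RSL2 one of -0.89 ± 0.32. The calls of MRH1 and XTH13 were lost in 4 and 5 of the 6 leave-one-out fits. EXT6, an extensin outside the list, went from 238, 293 and 305 CPM to 127, 115 and 124 CPM (log2(FC) -1.19 ± 0.13, adjusted p = 1.67e-09). Extensins share repeats, and how multiply mapped reads were counted is not given in the sources used here.

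Promoters of root hair genes are shown for the root hair element, the motif of that name found upstream of hair genes. By its published consensus it was matched on both strands in 6 of the 26 promoters of the list (23.1%), in 10.9% of those of genes down, in 3.26% of genes up and in 0.803% of all. As the motif was itself found upstream of hair genes, a higher share in a set with hair genes may follow in part from that. These shares carry no test. The match is in capitals. It began 78 bases before the start of EXPA7, 167 before PRP3, 93 before LRX1 and 73 before MRH6.
EXPA7 (chr1:4276255-4276504, plus strand): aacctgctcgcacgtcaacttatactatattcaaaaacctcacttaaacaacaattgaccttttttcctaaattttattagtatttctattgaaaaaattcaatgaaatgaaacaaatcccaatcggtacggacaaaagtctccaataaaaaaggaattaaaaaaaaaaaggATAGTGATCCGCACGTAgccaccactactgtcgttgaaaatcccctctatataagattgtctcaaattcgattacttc
PRP3 (chr3:23182472-23182721, plus strand): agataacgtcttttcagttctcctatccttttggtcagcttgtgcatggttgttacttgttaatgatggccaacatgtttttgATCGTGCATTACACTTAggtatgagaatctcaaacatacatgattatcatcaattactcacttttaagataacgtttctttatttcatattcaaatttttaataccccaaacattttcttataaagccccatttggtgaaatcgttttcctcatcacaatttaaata
LRX1 (chr1:4069742-4069991, plus strand): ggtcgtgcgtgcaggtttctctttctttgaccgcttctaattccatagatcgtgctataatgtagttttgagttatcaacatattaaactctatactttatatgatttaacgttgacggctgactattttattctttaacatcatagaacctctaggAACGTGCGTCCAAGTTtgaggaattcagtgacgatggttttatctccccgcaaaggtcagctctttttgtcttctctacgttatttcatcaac
MRH6 (chr2:1131870-1132119, plus strand): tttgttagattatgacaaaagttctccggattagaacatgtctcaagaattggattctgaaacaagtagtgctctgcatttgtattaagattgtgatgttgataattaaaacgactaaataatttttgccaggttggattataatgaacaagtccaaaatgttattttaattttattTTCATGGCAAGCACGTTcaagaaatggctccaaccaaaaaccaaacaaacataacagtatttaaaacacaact

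Other genes were among the largest falls. FLA6, a fasciclin-like arabinogalactan protein, went from 14.5, 18.3 and 18.1 CPM to 7.98, 5.18 and 7.25 CPM (log2(FC) -1.31 ± 0.16, adjusted p = 1.67e-08). AGP3, an arabinogalactan peptide, went from 61.9, 70.5 and 78.4 CPM to 33.0, 31.1 and 32.4 CPM (log2(FC) -1.13 ± 0.12, adjusted p = 6.96e-10). G3Pp2, a glycerol-3-phosphate permease, went from 13.1, 16.4 and 17.5 CPM to 5.02, 3.92 and 5.11 CPM (log2(FC) -1.73 ± 0.18, adjusted p = 4.17e-10). AT5G04730, which the reference leaves without a name, had the largest fall among the genes named by the rule, from 3.33, 3.56 and 4.13 CPM to 0.823, 1.29 and 0.797 CPM (log2(FC) -1.82 ± 0.29, adjusted p = 1.12e-05). All NHP libraries lay below all mock libraries for these 4 genes. RHS16, CCP3, AGD11, AT2G41810, AT5G26320, AT3G20460 and AT1G07680 fell by between 1.11 and 1.62 on the log2 scale. AGP30, an arabinogalactan protein of roots, had 19.96, 20.61 and 9.839 CPM in mock and 9.38, 7.28 and 5.87 CPM with NHP, so that mock replicate 3 nearly met the NHP libraries (log2(FC) -1.16 ± 0.26, adjusted p = 0.00275). Each of the 30 rises and falls named by the rule kept its call in all 6 leave-one-out fits. The rule asks for fully separate groups and a minimum mean count, so these genes do not stand for all large changes. Some falls of similar size outside the rule lost their calls in most of the 6 fits.

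Aquaporins, the water channels of the plasma membrane and the tonoplast, also fell. Of 18, 12 fell and 0 rose (66.7% called, median -0.28). TIP2;3, a tonoplast channel of roots that also passes ammonia, went from 15.9, 17.4 and 19.5 CPM to 8.15, 7.76 and 7.46 CPM (log2(FC) -1.17 ± 0.16, adjusted p = 9.88e-07). TIP2;2 went from 138, 140 and 138 CPM to 78.3, 78.8 and 76.4 CPM (log2(FC) -0.83 ± 0.11, adjusted p = 3.00e-07). TIP1;1, among the most abundant in counts, went from 531, 514 and 535 CPM to 382, 375 and 402 CPM (log2(FC) -0.45 ± 0.06, adjusted p = 4.77e-08). The replicates were close, and the groups did not overlap. PIP1;1, PIP1;2, PIP1;3, PIP1;4, PIP2;1, PIP2;3, PIP2;4, PIP2;7 and TIP1;2 fell by between 0.23 and 0.47 on the log2 scale. The summed level of the 18 genes was 5516, 5220 and 5445 CPM in mock and 4399, 4471 and 4499 CPM with NHP.

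Iron genes moved both ways. Of 23 measured, 2 rose and 3 fell (median -0.04). IRT2, an iron transporter of root epidermis, fell by 0.94 (SE 0.17), the proton pump AHA7 by 0.74 (SE 0.10) and the nicotianamine synthase NAS1 by 0.32 (SE 0.08) on the log2 scale. NAS2 rose by 0.98 ± 0.24, and ABCG37, an exporter of phenolic compounds from roots, rose from 53.9, 62.2 and 54.5 CPM to 93.3, 98.1 and 104 CPM (log2(FC) 0.79 ± 0.11, adjusted p = 3.00e-07). Of 11 clock genes, CCA1, a morning MYB factor, fell by 0.54 (SE 0.13), and LUX, of the evening complex, rose by 0.17 ± 0.05, a call lost in 5 of the 6 leave-one-out fits.

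None of the root markers was called beside the falls of root hair genes. The 10 genes of endodermis and root cap, as a list, had a median log2(FC) of -0.05. Their values ranged from -0.68 to 0.12, and only 3 of the 10 were above 0. CASP1, a protein of the Casparian strip, had 30.3, 32.6 and 30.2 CPM in mock and 29.3, 34.7 and 34.8 CPM with NHP. Transcripts of the chloroplast genome differed between the groups in another way: they made up 0.231, 0.323 and 0.331% of counts in mock and 0.377, 0.388 and 0.405% with NHP. Of 68 such genes tested, 12 were called higher and 0 lower (median 0.32). Their part in the other results was not tested.

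The comparison with Col-0 asks whether seedlings that cannot make NHP answered supplied NHP as the wild type did. In Col-0 at 3 h, 813 genes were called (3.86%), 355 higher (1.69%) and 458 lower (2.18%). Of the 93 genes up in fmo1-1, 70 were called higher in Col-0, and 59 were also past a log2(FC) of 1 there (63.4% of the fmo1-1 list and 77.6% of the 76 genes up in Col-0, themselves 0.361% of genes tested). Of the 55 genes down, 44 were called lower in Col-0, and 42 were also past -1 (76.4% of the fmo1-1 list and 39.3% of the 107 genes down in Col-0, 0.509% of genes tested). None of the 148 genes was called in the opposite direction. The test of the difference itself called 1 gene of 21042 (0.00475%), with 1393 genes at an unadjusted p below 0.05 and 2 genes called by DESeq2. The gene called was COL2, a CONSTANS-like factor. In fmo1-1 it went from 12.1, 11.4 and 11.7 CPM to 7.69, 8.80 and 8.22 CPM, and in Col-0 from 7.99, 9.94 and 8.16 CPM to 10.11, 10.91 and 10.57 CPM. The difference of -0.77 ± 0.15 on the log2 scale (adjusted p = 0.0475) was lost with the replicate number as a block and in 10 of 12 leave-one-out fits. COL2 overlaps 2 genes on the opposite strand. At 3 h, mock and NHP libraries of Col-0, and likewise those of sid2-2, came from different sample batches by the study's setup table. Batch and treatment thus cannot be told apart in those 2 genotypes. The batch of the fmo1-1 libraries is not given in the sources used here, so the same limit may hold for fmo1-1. Nor can batch be told apart from a difference between genotypes.

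**Figure D3:**
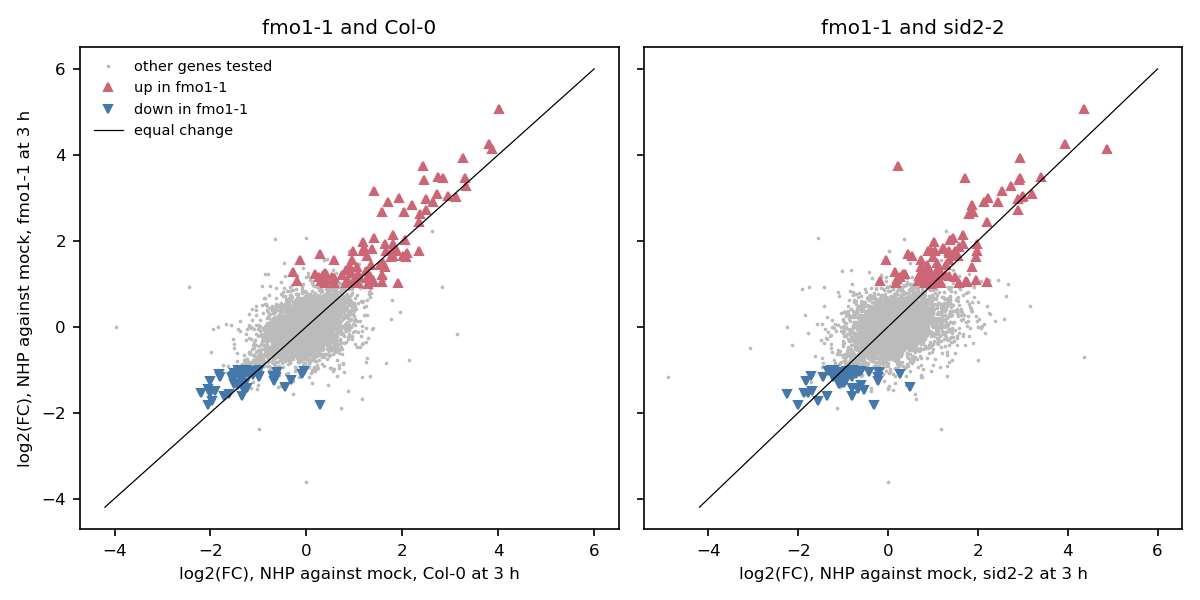
log2(FC) of NHP against mock in fmo1-1 at 3 h (vertical axis) against that in Col-0 (left) and sid2-2 (right) for the 21042 genes tested. Triangles are the 93 genes up and 55 genes down in fmo1-1, and the line marks equal change; most genes up lie near or above it, and ARD3 is the highest point at 5.07.

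Sizes were compared over the lists of either genotype. The 93 genes up, chosen on fmo1-1, had a median log2(FC) of 1.55 in fmo1-1 and 1.38 in Col-0. The 76 genes up in Col-0 had medians of 1.65 in fmo1-1 and 1.69 in Col-0. For the genes down, the lists chosen on either genotype gave the deeper fall in Col-0: -1.15 against -1.30 over the 55 genes down in fmo1-1, and -0.93 against -1.26 over the 107 genes down in Col-0. All 26 root hair genes had a deeper fall in Col-0 (median -1.18) than in fmo1-1 (median -0.86), and 24 of them were called there. The difference was called for none of the 26. For PRP3 it was 0.37 with a 95% interval from 0.04 to 0.71, for COW1 0.43 (0.10 to 0.76), for RHD2 0.43 (0.16 to 0.70) and for EXPA7 0.10 (-0.23 to 0.42), each with an adjusted p above 0.05. The intervals are unadjusted.

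**Figure D4:**
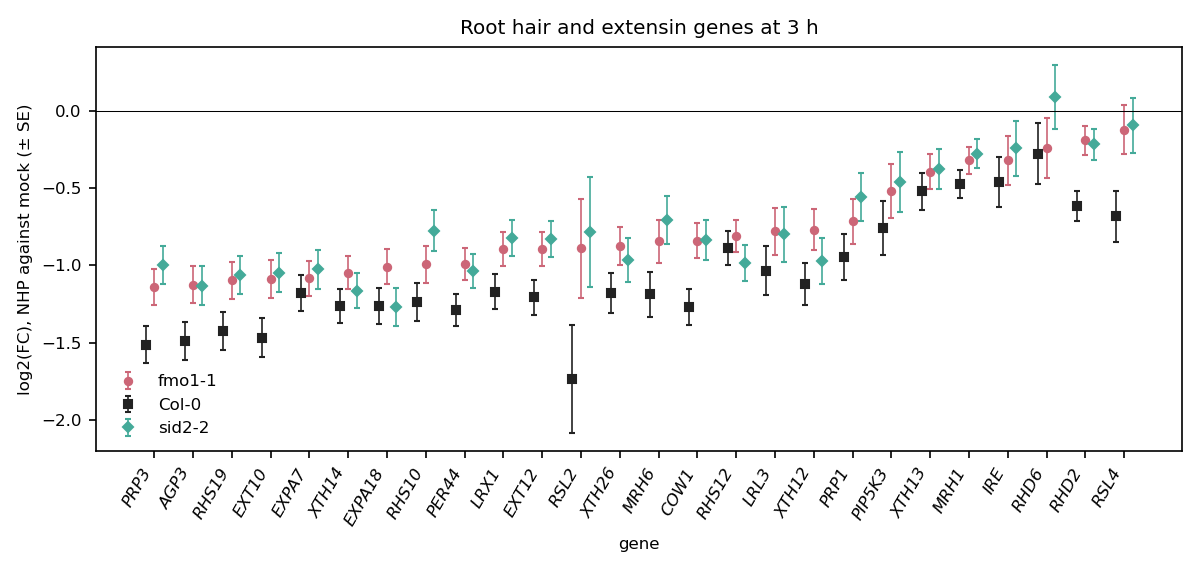
log2(FC) of NHP against mock at 3 h, with its SE, for the 26 root hair and extensin genes in fmo1-1 (circles), Col-0 (squares) and sid2-2 (diamonds), ordered by the value in fmo1-1. Every Col-0 point lies below its fmo1-1 point, and 25 of the 26 sid2-2 values are below 0.

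In sid2-2, which makes little SA by ICS1, more genes were called at 3 h than in fmo1-1, with the same limit of batch. There 2739 genes were called (13.0% of genes tested), 1218 higher (5.79%) and 1521 lower (7.23%), with 251 up (1.19%) and 57 down (0.271%). Of the 93 genes up in fmo1-1, 69 were called higher in sid2-2, and 55 were past 1 in both (59.1% of the fmo1-1 list and 21.9% of the sid2-2 list). The 251 genes up in sid2-2 had a median log2(FC) of 0.43 in fmo1-1. In the glutathione transferase list, 2 of 30 rose in fmo1-1 (median 0.20) and 22 of 30 in sid2-2 (median 1.04). The test of the difference called 10 genes in all (0.0475%), with 2227 at an unadjusted p below 0.05 and 69 called by DESeq2. GSTU1, a tau glutathione transferase, was the 1 member of that list among them. It had 29.5, 25.6 and 23.8 CPM in mock and 24.7, 25.5 and 34.9 CPM with NHP in fmo1-1, and went from 6.46, 6.60 and 7.08 CPM to 18.5, 19.1 and 15.6 CPM in sid2-2 (difference -1.28 ± 0.27, adjusted p = 0.0427). The 3 mock fmo1-1 libraries lay above all 6 sid2-2 libraries. For BIP1 the 2 genotypes moved apart, up by 0.23 ± 0.05 in fmo1-1 and down by 0.16 (SE 0.05) in sid2-2 on the log2 scale (difference 0.39 ± 0.08, adjusted p = 0.0305). Over the leave-one-out fits the count ranged from 0 to 32.

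PCC1 and LURP1 had lower values in sid2-2. With NHP, LURP1 reached 0.355, 0.134 and 0.245 CPM in sid2-2, under the 7.41 CPM of the lowest fmo1-1 library, and its log2(FC) there was 1.72 with an SE of 1.182. In mock sid2-2, LURP1 had 0.04065, 0 and 0 CPM. PCC1 in sid2-2 had 0, 0.04459 and 0 CPM in mock and 0.04442, 0.04464 and 0 CPM with NHP. Such levels rest on very few reads, so a smaller response in sid2-2 cannot be read from them. PCC1 had a log2(FC) of 0.21 in sid2-2 and 3.74 in fmo1-1. Neither difference was called. WRKY38 (3.94), WRKY54 (3.21) and ARD3 (4.36) had log2(FC) values in sid2-2 close to those in fmo1-1.

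Over time in fmo1-1, each time set against its own mock, NHP changed 831 genes by 15 min (3.95%; 1.29% higher and 2.66% lower) and 569 by 30 min (2.70%; 0.946% higher and 1.76% lower). The later samples gave 832 calls after 3 h and 1086 after 6 h (5.16%; 2.64% higher and 2.52% lower). Some of the rises at 3 h were early. WRKY38 had a log2(FC) of 4.02 ± 0.33 by 15 min, 5.87 by 30 min, 4.25 by 3 h and 3.23 by 6 h. WRKY54, WRKY51, WRKY62 and GRX480 were also up past 1 at 15 min and made with WRKY38 the 5 of 93 genes that were, against 0.190% of genes tested. Others came late. The difference between the responses at 3 h and 30 min was called for 131 genes (0.623%), 105 of them with a higher value at 3 h (0.499%) and 26 with a lower one (0.124%). The SA and SAR output list had a median log2(FC) of -0.44 after 15 min, 0.02 after 30 min, 1.82 after 3 h and 1.93 after 6 h. Several of its members were grouped by the paper for a late rise in Col-0 of this series. A late rise of this list is thus partly built into its choice. Of its 24 genes, 2 rose and 3 fell at 15 min, 3 rose at 30 min and 14 at 6 h, and the difference between 3 h and 30 min was called for 6, all higher at 3 h. CRRSP57 had a log2(FC) of -0.04 at 30 min and 3.41 at 3 h (difference 3.45 ± 0.42, adjusted p = 2.22e-07), ARD3 had 1.59 and 5.07 (3.47 ± 0.71, adjusted p = 0.00416) and BDA1 had -0.38 and 2.99 (3.37 ± 0.74, adjusted p = 0.0116).

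LURP1 crossed 0. At 15 min it had 1.08, 3.69 and 6.68 CPM in mock and 1.03, 0.654 and 0.288 CPM with NHP (log2(FC) -2.39 ± 0.60, adjusted p = 0.0117), against a log2(FC) of 3.47 at 3 h and 3.96 at 6 h. It was 1 of 5 genes up at 3 h that were called lower at 15 min, with LLP1, AT1G61840, AT2G30670 and AT2G41090. The 3 mock libraries at 15 min spread widely for this gene, and the highest of the NHP libraries nearly met the lowest of them.

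Root hair genes were already lower at 15 min. The root hair list had a median log2(FC) of -0.90 at first, then -1.08 at 30 min, -0.86 at 3 h and -1.10 in the last samples. The number of its 26 genes called lower was 20 by 15 min, 21 by 30 min, 20 by 3 h and 25 by 6 h. TIP2;3 was called lower only in the later samples. It had -0.18 and -0.13 in the early samples, -1.17 at 3 h and -1.91 at 6 h, and the difference between 3 h and 30 min was called (-1.04 ± 0.22, adjusted p = 0.00889). AGP30 had 0.30 at 30 min and -1.16 at 3 h (difference -1.46 ± 0.36, adjusted p = 0.0387).

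**Figure D5:**
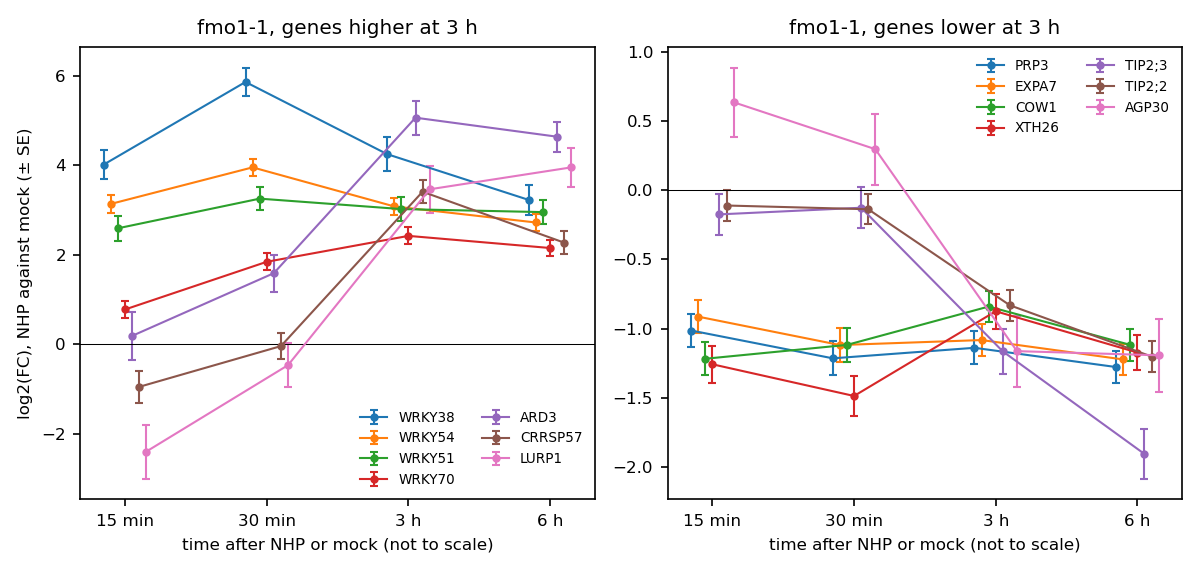
log2(FC) of NHP against mock in fmo1-1, with its SE, at the 4 times for 7 genes higher (left) and 7 genes lower (right) at 3 h. WRKY38 was at 5.87 by 30 min, ARD3, CRRSP57 and LURP1 rose between 30 min and 3 h, and the tonoplast channels fell after 30 min.

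Most large changes at 3 h were also called at 6 h. Of the 93 genes up at 3 h, 65 were called higher at 6 h, and 45 of the 55 genes down were called lower. The difference between the 2 responses was called for 8 genes (0.0380%), with 1254 at an unadjusted p below 0.05 and 17 called by DESeq2. ECS1, a gene of the cell wall, had 50.9, 47.3 and 55.6 CPM in mock and 81.7, 83.4 and 111 CPM with NHP at 3 h. At 6 h it had 25.8, 27.3 and 35.2 CPM and 150, 130 and 118 CPM, so the log2(FC) went from 0.85 to 2.17 (difference 1.32 ± 0.21, adjusted p = 0.00233). The mock libraries were lower and the NHP libraries higher at 6 h than at 3 h, without overlap. The count ranged from 1 to 10 over the leave-one-out fits.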

How the data were processed

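Gene counts of the 72 libraries were used as the authors deposited them, as whole-number counts per gene without normalization. Per the paper's methods and the submitters' processing notes, reads were checked with FastQC, trimmed and mapped to TAIR10 with CLC Genomics Workbench. The sources used here do not give the counting rule, the use of strand or the handling of multiply mapped reads. The table holds 0 unused columns of counts.

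The 72 libraries formed 24 groups in 1 model of edgeR 4.0.16 (R 4.3.3; filterByExpr with minimum count 10 and total 15, TMM, robust quasi-likelihood, prior count 2, 48 residual degrees of freedom, common biological coefficient of variation 0.0631), with Benjamini-Hochberg adjustment over 21042 genes. The SE of a log2(FC) is its size divided by the square root of F, and 95% intervals use 48 degrees of freedom. Both are approximate. The fit was tested on simulated data. Each library is 1 well, so p-values measure the spread between wells. Pairs of replicates differed by 3.28 to 7 times the sampling noise (chi-square per degree of freedom). DESeq2 1.42.0 was an alternative, with other scaling, no filter, a replicate block and each library left out.

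Named are FMO1, ICS1, the 15 largest rises and falls called past a log2(FC) of 1 or -1 if NHP and mock libraries were fully separate and the mean count reached 50, the 5 largest each way per difference, and list members. AT4G19760, AT5G41300, AT1G61840, AT2G30670 and AT2G41090 were chosen after their values were seen. Members and lists were chosen with earlier results of these data known. Of 27655 identifiers, 27445 matched RefSeq (TAIR10.1).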

Additional observations from a re-analysis of the deposited data

Results flagged for a closer look

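Differences between 2 responses that passed the test of the difference itself are listed with their size on the log2 scale (SE). Between fmo1-1 and Col-0 at 3 h it was COL2, at -0.77 (0.15). Between fmo1-1 and sid2-2 at 3 h, higher in fmo1-1 were AT1G49750 at 0.65 (0.11), SVL2 at 0.46 (0.09), AT2G44760 at 0.40 (0.08), BIP1 at 0.39 (0.08) and the chloroplast chaperone gene cpHsc70-2 at 0.36 (0.07). Lower in fmo1-1 were GSTU1 at -1.28 (0.27), the malate synthase gene MLS at -1.03 (0.22), AT4G13180 at -0.76 (0.16) and AT4G18205 at -0.68 (0.15).

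Between 3 h and 30 min in fmo1-1, a higher value at 3 h was found for LURP1 at 3.93 (0.74), ARD3 at 3.47 (0.71), CRRSP57 at 3.45 (0.42), BDA1 at 3.37 (0.74) and AT3G22235 at 2.99 (0.68). A lower value at 3 h was found for AT1G56660 at -1.54 (0.29), AGP30 at -1.46 (0.36), the sugar transporter gene SWEET10 at -1.10 (0.28), GH9C3 at -1.09 (0.24) and TIP2;3 at -1.04 (0.22).

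Between 6 h and 3 h, a higher value at 6 h was found for ECS1 at 1.32 (0.21), AT1G76960 at 1.13 (0.24), the squalene monooxygenase gene SQP1 at 1.01 (0.20) and ZFN1 at 0.46 (0.09). A lower value at 6 h was found for the chloroplast genome loci ATCG01240 at -1.17 (0.24) and ATCG00905 at -0.95 (0.20), for OEP6 at -0.62 (0.13) and for BBX8 at -0.38 (0.08). At 3 h the chloroplast genome share of counts was itself higher with NHP than in mock, and its part in these 2 values was not tested.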

How the results depend on the processing

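The counts of genes called, up and down in fmo1-1 at 3 h stayed within 1.5 times under upper-quartile scaling, no filter, the replicate block, DESeq2 and fits of the compared libraries only (776 to 959 called). Leaving out 1 library gave 461 to 702 called, 68 to 94 up and 42 to 59 down. The difference from Col-0 (1 gene) was called for 0 genes with the replicate block, 2 with DESeq2 and 4 with the compared libraries only, and for 0 to 3 without 1 library. The difference from sid2-2 (10 genes) was called for 4 genes without a filter, 69 with DESeq2 and 23 with the compared libraries only, and for 0 to 32 without 1 library. It gave 14 genes with the replicate block. The difference between 3 h and 30 min (131 genes) was called for 85 with the compared libraries only and for 69 to 167 without 1 library. That between 6 h and 3 h (8 genes) was called for 3 without a filter, 3 with the replicate block, 17 with DESeq2 and 22 with the compared libraries only, and for 1 to 10 without 1 library. FMO1 in mock fmo1-1 against mock Col-0 was -2.34 (adjusted p = 0.0579) with the replicate block and ranged from -2.48 to -2.28 without 1 library. For 2 genes that were not called the sign turned: ICS1 was 0.0198 without mock replicate 2 and 0.01 without NHP replicate 1 (range -0.10 to 0.02 over the 6 leave-one-out fits), and PR1 was -0.33 without NHP replicate 3. The cause of these changes was not tested.

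Same-numbered mock and NHP libraries of fmo1-1 at 3 h had correlations of deviations of 0.04, -0.02 and -0.01, so the numbers do not pair the samples, and the block called 845 genes against 832. Leaving out a library from a group leaves 2 there, which alone lowers the number of calls. At the depth of these libraries, genes under about 1 CPM rest on few counts, and a change that was not called is not shown to be absent.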

Other observations

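Some genes that changed lay close together in the genome. Of the 93 genes up in fmo1-1 at 3 h, 19 lay in 8 runs in which at most 2 other genes separated neighbours, and of the 55 genes down, 4 lay in 2 runs. The share of all genes that lie in such runs was not computed. One run on chromosome 5 held CRRSP57, AT5G41290 and AT5G41300 (log2(FC) 3.41, 2.98 and 1.395), and another held WRKY38 with AT5G22550 and AT5G22555 (4.25, 1.08 and 2.73). On chromosome 4 the terpene synthase gene TPS13 stood beside the cytochrome P450 gene CYP71A20 (1.28 and 1.17), and ACD6 beside its relative AT4G14390 (2.02 and 1.14). Several runs hold similar genes, whose reads may be shared. All members of these runs outside the named lists were chosen after their values were seen.

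Some genes past a log2(FC) of 1 or -1 were called in fmo1-1 alone, with no call in the same direction in Col-0 or sid2-2 at 3 h. They were 12 of the 93 genes up, among them TPS13, CYP71A20, the dirigent gene DIR5 and the methionine sulfoxide reductase gene MSRB8, and 10 of the 55 genes down, among them the calcium pump gene ACA7 and the expansin gene EXPA12. The difference from either genotype was called for 0 of these 22 genes. Only 1 of the 12 and 1 of the 10 kept the call without each of the 6 libraries in turn.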
